A study of Mus musculus with 32 samples.

Results

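Transcript levels of 9 genes of the interleukin-1 (IL-1) family and the inflammasome were followed in 32 liver tumor libraries, out of 54446 genes counted in each. The genes are the ligands Il1a, Il1b, Il18 and Il33, the receptor antagonist Il1rn, the signaling receptor Il1r1, the decoy receptor Il1r2, the sensor Nlrp3 and the protease Casp1. They were taken as a named list, and all 9 passed the filter on low counts in every comparison. All tumors came from BNL-MEA, 1 mouse liver cancer cell line, implanted into the liver of immune-competent BALB/c mice. In the dose experiment mice received vehicle (n = 4), regorafenib 5 mg/kg/day (low dose, n = 3) or regorafenib 20 mg/kg/day (high dose, n = 3). This drug, taken by mouth, inhibits a range of kinases such as the VEGF receptors. In the DC-101 experiment they received vehicle (n = 4), the low dose (n = 3) or DC-101 (n = 3), an antibody to mouse VEGFR2 given at 800 µg on days 1, 3 and 5. In the anti-PD1 experiment they received vehicle, the low dose, an antibody to the T cell checkpoint receptor PD1, or the low dose with that antibody (combination), with n = 3 in each group. Mouse ages were not given in the sources used here.

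IL-1 cytokines are early signals of inflammation, and IL-1α and IL-1β, the products of Il1a and Il1b, signal through the receptor encoded by Il1r1. IL-1β and IL-18 are made as inactive precursors that caspase-1, the product of Casp1, cuts once a sensor such as NLRP3 has assembled an inflammasome with the adaptor ASC, the product of Pycard. Myeloid cells are a main source of Il1b, Il1rn and Nlrp3 transcripts in inflamed liver, and RNA counts do not show cleavage or release of the proteins.

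Il1b lies on the minus strand of chromosome 2 (GRCm38, 129364570 to 129371139), as does Il1a (129299610 to 129309972), and Il1rn is on the plus strand of the same chromosome (24336853 to 24351494). Il1r2 (40074079 to 40125231) and Il1r1 (40225080 to 40317257) are both on the plus strand of chromosome 1. Il18 (50554827 to 50581840) and Casp1 (5298517 to 5307265) are on the plus strand of chromosome 9, Il33 (29925114 to 29960718) on that of chromosome 19 and Nlrp3 (59541568 to 59566956) on that of chromosome 11. An antisense gene shared 222 bases of exon with Il1a and another shared 25 bases with Il1b. Which strand the counts were taken from was not stated, so reads from those stretches cannot be told apart.

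Promoter sequence is shown for Il1b and Nlrp3, which passed the test at the high dose, and for Il1rn, the antagonist whose level is set beside that of Il1b. Il1rn has 3 starts in the table, of which the first is shown, Il1b has 1 and Nlrp3 has 2. These are the 250 bases before each start shown, 5′ to 3′ on the strand of the gene (RefSeq, GRCm38.p6), with motif matches in capitals.
Il1b (chr2:129371140-129371389, - strand): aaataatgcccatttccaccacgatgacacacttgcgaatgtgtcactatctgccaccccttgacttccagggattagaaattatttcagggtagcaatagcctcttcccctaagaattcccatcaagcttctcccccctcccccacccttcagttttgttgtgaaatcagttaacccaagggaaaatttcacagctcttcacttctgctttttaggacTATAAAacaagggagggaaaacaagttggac
Il1rn (chr2:24336610-24336859, + strand): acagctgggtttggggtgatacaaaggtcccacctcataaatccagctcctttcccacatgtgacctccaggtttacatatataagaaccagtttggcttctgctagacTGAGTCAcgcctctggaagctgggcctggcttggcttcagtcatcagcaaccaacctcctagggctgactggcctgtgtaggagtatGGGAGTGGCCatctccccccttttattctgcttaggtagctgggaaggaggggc
Nlrp3, first start (chr11:59541319-59541568, + strand): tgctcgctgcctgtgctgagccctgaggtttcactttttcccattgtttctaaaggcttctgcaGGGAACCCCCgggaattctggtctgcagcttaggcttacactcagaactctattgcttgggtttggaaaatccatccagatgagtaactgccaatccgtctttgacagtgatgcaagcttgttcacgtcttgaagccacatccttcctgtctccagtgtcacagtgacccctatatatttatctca
Nlrp3, second start (chr11:59542436-59542685, + strand): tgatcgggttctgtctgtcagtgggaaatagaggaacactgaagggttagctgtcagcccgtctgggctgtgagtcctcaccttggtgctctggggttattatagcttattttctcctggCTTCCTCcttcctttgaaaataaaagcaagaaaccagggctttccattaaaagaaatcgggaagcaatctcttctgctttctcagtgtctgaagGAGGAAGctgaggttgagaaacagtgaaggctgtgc
Searched on both strands were the TATA box (TATAAA, in 12.4% of 32851 promoters of this length), AP-1 (TGANTCA, 6.75%), the CRE (TGACGTCA, 1.55%) and its core (TGACG, 17.8%, also found inside a CRE), NF-kB (GGG, any 5 bases, then CC, 45.8%), PU.1 (GAGGAAG, 10.6%) and C/EBP (TTGCNNAA, 9.56%). In the Il1b window the capitals mark a TATA box 31 to 26 bases before the start. Before the first Il1rn start they mark an AP-1 match at 141 to 135 bases and an NF-kB match at 54 to 45, while of the starts not shown 1 had an NF-kB match at 51 to 42 and 1 had none of these motifs. Before the first Nlrp3 start they mark an NF-kB match at 186 to 177 bases, and before the second PU.1 matches at 36 to 30 bases and, on the other strand, at 130 to 124. A match describes letters in the window and is not a measured binding site.

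Libraries held 16.8 M to 27.7 M counts in total. Levels below are log2 CPM, counts scaled to the library size by TMM within an experiment, where a difference of 1 is a doubling. Hepatocyte markers, genes of normal liver cells, spread widely, with a mean log2 CPM over 12 genes of 0.06 to 12.5 and the highest value in high dose replicate 1. Macrophage markers were detected in every library, with a mean log2 CPM over 9 genes of 5.49 to 8.12. The libraries of the anti-PD1 experiment came from separate tumors according to the study, and for the other experiments nothing in the sources used here says so, so there p-values measure the spread between libraries, which may be partly technical. In bulk tumor RNA, fewer cells of a type and less RNA per cell cannot be told apart.

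Across the 11 vehicle libraries, Casp1, Il1b and Il1r1 had the highest levels per length and Il1a the lowest. In CPM per kilobase of exon (RPKM, scaled within each experiment), the median was 17.0 for Casp1 (range 11.5 to 33.2), 15.8 for Il1b (1.85 to 34.4) and 12.8 for Il1r1 (10.7 to 25.8). Median RPKM was 5.71 for Il33 (0.556 to 51.8), 4.62 for Il18 (3.43 to 9.15) and 2.83 for Nlrp3 (0.824 to 6.1). It was 2.51 for Il1rn (0.387 to 6.18), 1.16 for Il1r2 (0.59 to 7.64) and 0.707 for Il1a (0.158 to 2.25). The range of each gene overlapped that of its neighbor in this order. All genes were read in the same libraries, and their order within each library was not compared. With the longest transcript as the length, Il1b came before Casp1 and Il1rn before Il18 and Nlrp3.

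**Figure D1:**
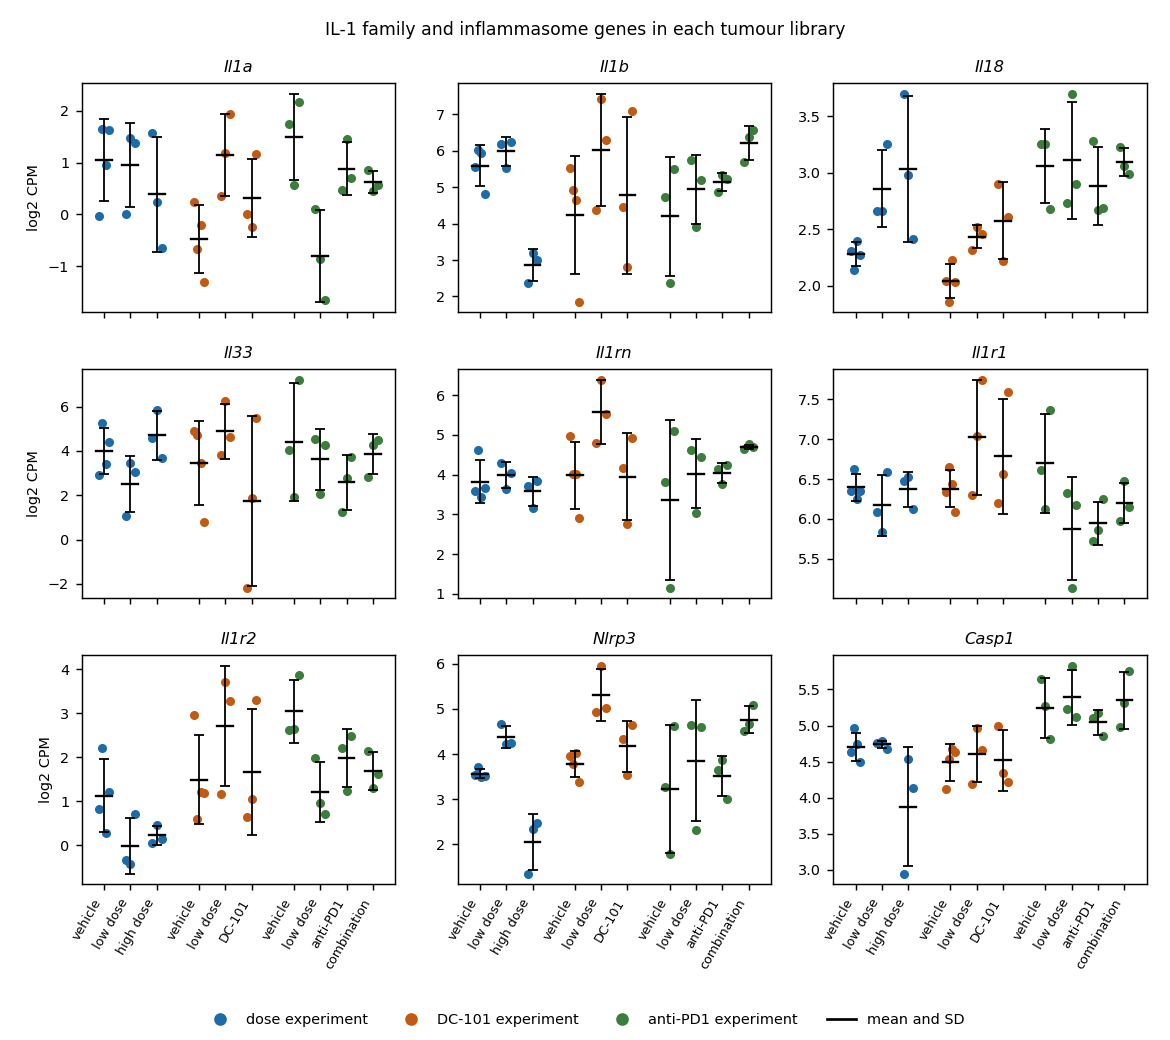
Level of each gene in every tumor library (y axis, log2 CPM, x axis, the 10 groups by experiment), with points for libraries and bars for the group mean and SD (n = 3 or 4). The 3 high dose libraries sit below the other libraries of the dose experiment for Il1b and Nlrp3, and Il33 spreads from -2.17 to 7.22.

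The plot of levels by library shows how unequally the genes varied. Over the 32 libraries the range on the log2 CPM scale was 1.84 for Il18, 2.6 for Il1r1, 2.88 for Casp1, 3.84 for Il1a and 4.29 for Il1r2. It was 4.61 for Nlrp3, 5.23 for Il1rn, 5.55 for Il1b and 9.39 for Il33, the alarmin stored in nuclei of stromal and epithelial cells. Il33 was read from 3 to 3499 counts per library and Il1a from 5 to 104, so the low values of both rest on few reads.

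In the dose experiment, Il1b and Nlrp3 fell at the high dose and no gene of the list rose by edgeR. Il1b was 6.73-fold lower and Nlrp3 2.7-fold lower than with vehicle, while Il1rn and Il1r1, the antagonist and receptor for the same cytokine, had log2 changes of -0.3 and 0. Of the 9 genes, 2 passed an adjusted p of 0.05, both lower, where 15.6% of the 16525 genes tested passed, 8.8% higher and 6.82% lower. At an unadjusted p under 0.05 there were 3 of 9, where 40.1% of all genes were. The median log2 change was -0.52 over the 9 genes and 0.02 over all genes tested.

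Il1b, the main secreted IL-1 ligand, was at 5.55, 6.03, 5.95 and 4.8 log2 CPM with vehicle, 6.18, 5.52 and 6.24 at the low dose, and 2.38, 3.2 and 3.01 at the high dose. The 3 high dose libraries were below all 7 others, and low dose and vehicle overlapped. The log2 change at the high dose was -2.75 (SE 0.36, adjusted p = 0.0143, edgeR's quasi-likelihood test, as for every adjusted p below). Against the low dose, the high dose was 8.4-fold lower (log2 change -3.07, SE 0.37, adjusted p = 0.00678). At the low dose the log2 change against vehicle was 0.32 (SE 0.32, adjusted p = 0.991).

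Nlrp3, the inflammasome sensor, was at 3.53, 3.71, 3.5 and 3.51 log2 CPM with vehicle, 4.67, 4.23 and 4.24 at the low dose, and 1.35, 2.34 and 2.48 at the high dose. The groups did not overlap, and the order was low dose, vehicle, high dose. The log2 change was -1.43 at the high dose (SE 0.27, adjusted p = 0.0269) and 0.8 at the low dose, which did not pass (SE 0.26, adjusted p = 0.843). Between doses, the high dose was 4.71-fold lower (log2 change -2.24, SE 0.29, adjusted p = 0.00783).

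Both calls against vehicle sat near the threshold. Without vehicle replicate 3 the Il1b change was -2.65 (adjusted p = 0.0516), and without any 1 of the vehicle libraries that of Nlrp3 was -1.47 to -1.34 (adjusted p = 0.0725 to 0.0788). Without high dose replicate 1, the library richest in hepatocyte markers, Il1b was at -2.55 (adjusted p = 0.0196) and Nlrp3 at -1.15 (adjusted p = 0.0238). With the hepatocyte marker mean as a covariate, Il1b was at -2.67 (adjusted p = 0.0306) and Nlrp3 at -1.16 (adjusted p = 0.0976). With total count scaling Nlrp3 was at -1.52 (adjusted p = 0.0626). Between doses, Nlrp3 was at -2.07 (adjusted p = 0.0529) without low dose replicate 1.

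**Figure D2:**
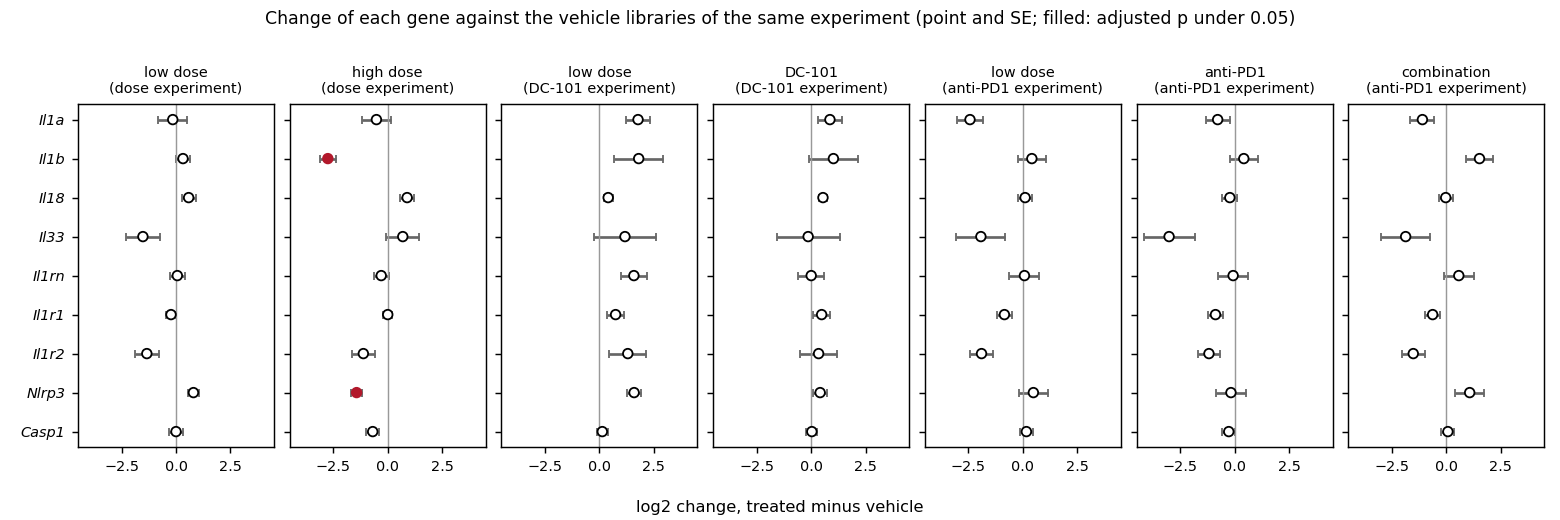
Log2 change of each gene against the vehicle group of its own experiment (points, with bars for 1 SE), for the 7 treatment comparisons. Filled points passed an adjusted p of 0.05, which only Il1b (-2.75) and Nlrp3 (-1.43) at the high dose did.

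Il18, the other ligand cut by caspase-1, was at 2.31, 2.14, 2.4 and 2.27 log2 CPM with vehicle, 2.66, 2.66 and 3.25 at the low dose, and 3.7, 2.98 and 2.41 at the high dose. Both dose groups were above every vehicle library, by as little as 0.01 at the high dose. The log2 change at the high dose, 0.89 (SE 0.32, adjusted p = 0.0725), did not pass. It passed in DESeq2 (0.92, adjusted p = 0.0255, among 5275 genes called), and in edgeR it was 0.45 (adjusted p = 0.246) without high dose replicate 1 and 0.19 (adjusted p = 0.786) with the hepatocyte covariate. Against vehicle, genes whose high dose libraries did not overlap were 1 of 9 higher and 2 of 9 lower, where 11.9% and 16% of all genes were. At the low dose the same counts were 2 and 0, where 7.86% and 5.91% of all genes were.

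Casp1, the protease itself, was at 4.63, 4.96, 4.74 and 4.49 log2 CPM with vehicle, 4.76, 4.78 and 4.68 at the low dose, and 2.95, 4.54 and 4.14 at the high dose. High dose replicate 1 stood lowest and the group overlapped vehicle, with a log2 change of -0.69 (SE 0.31, adjusted p = 0.127) that was -0.36 without that library. Il33 was at 2.9, 5.27, 3.42 and 4.42 log2 CPM with vehicle, 1.08, 3.45 and 3.04 at the low dose, and 4.6, 5.85 and 3.67 at the high dose. Its high dose libraries were above its low dose libraries, by a log2 change of 2.21 that did not pass (SE 0.84, adjusted p = 0.133), that passed in DESeq2 (2.23, adjusted p = 0.0333, among 3059 genes called) and that was 1.46 without high dose replicate 2.

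Il1rn, which blocks the IL-1 receptor, was at 3.58, 4.63, 3.43 and 3.66 log2 CPM with vehicle, 4.29, 3.63 and 4.04 at the low dose, and 3.71, 3.17 and 3.85 at the high dose. Il1r1 was at 6.35, 6.63, 6.25 and 6.35 with vehicle, 6.09, 5.84 and 6.59 at the low dose, and 6.48, 6.52 and 6.12 at the high dose. All 3 groups overlapped for both genes, and the high dose changes had adjusted p = 0.539 and 1. Il1r2, the decoy receptor, was at 0.83, 2.22, 0.27 and 1.2 with vehicle, -0.33, -0.42 and 0.72 at the low dose, and 0.06, 0.47 and 0.15 at the high dose. Its log2 change was -1.34 at the low dose (SE 0.54, adjusted p = 0.989) and -1.12 at the high dose (SE 0.54, adjusted p = 0.153), with overlap in both, and without vehicle replicate 2 it was -0.78 and -0.55. Il1a, the ligand that needs no caspase-1, was at -0.04, 1.64, 0.96 and 1.63 with vehicle, 0.01, 1.47 and 1.37 at the low dose, and 1.57, 0.23 and -0.65 at the high dose, again overlapping.

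At the low dose 0 of the 9 genes passed by edgeR, limma or DESeq2, and 2 had an unadjusted p under 0.05 in edgeR, where 0% and 4.94% of all genes did. Of all genes DESeq2 called 85 and limma 0. Between the doses 2 passed, both lower, where 4.22% of all genes passed, 1.74% higher and 2.48% lower, and 3 had an unadjusted p under 0.05, where 29.3% of all genes did. Non-overlapping genes between the doses were 1 of 9 higher and 3 of 9 lower, where 10.2% and 18.5% of all genes were.

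The difference of Il1b and Il1rn log2 CPM follows the ligand relative to its antagonist. It was 1.14 to 2.52 in the vehicle libraries, 1.89 to 2.19 at the low dose, and -1.33, 0.03 and -0.84 at the high dose. The high dose values were below all others of the experiment. In the DC-101 and anti-PD1 experiments the treated ranges of this difference overlapped those of vehicle, which were -1.06 to 0.9 and 0.4 to 1.21. The difference of Il1r1 and Il1r2 was 4.41 to 5.99 with vehicle, 5.87 to 6.42 at the low dose and 5.97 to 6.41 at the high dose, and both doses overlapped vehicle. No test was run on these differences, and their absolute size depends on gene length.

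**Figure D3:**
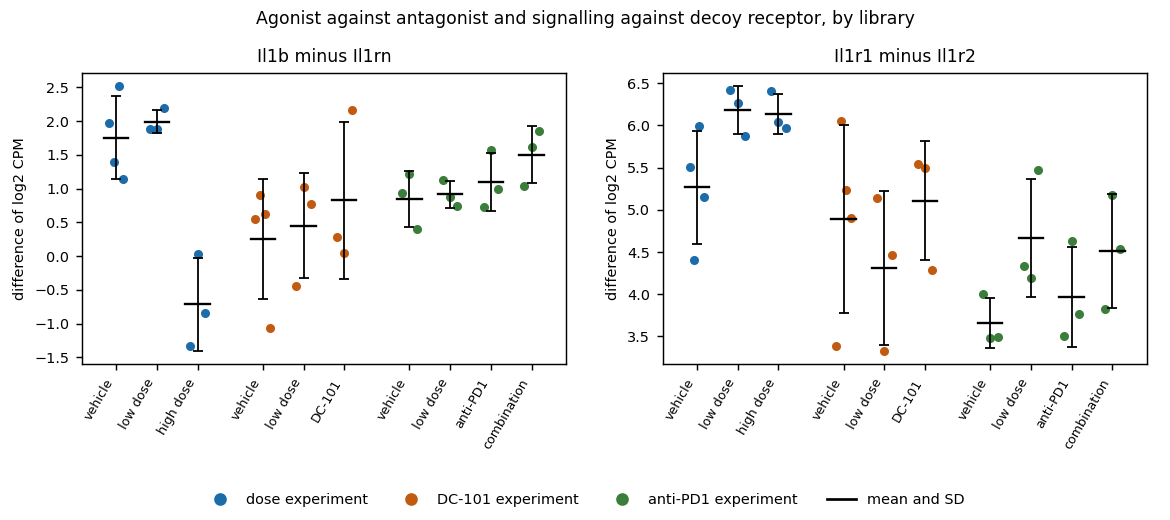
Difference of log2 CPM in each library between Il1b and Il1rn and between Il1r1 and Il1r2 (y axis), by group (x axis). The 3 high dose libraries lie at -1.33 to 0.03 for Il1b minus Il1rn, below the vehicle libraries at 1.14 to 2.52.

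Macrophage and monocyte markers were lower at the high dose as well. Of 9 macrophage markers 6 fell, where 6.82% of all genes tested passed as lower and 8.8% as higher. Among those 6 were Csf1r (-1.68), Fcgr1 (-1.85) and C1qa (-1.45), and the median log2 change of the 9 markers was -1.29. Their summed level was 1440 to 3040 CPM with vehicle, 3600 to 4140 at the low dose and 549 to 1360 at the high dose. Of 4 monocyte markers tested 2 fell, Ccr2 (-3.05) and Plac8 (-1.09), and the summed level of that list was 331 to 352 CPM with vehicle and 64.5 to 164 at the high dose. Neutrophil markers had 0 of 9 past the threshold and summed to 47.3 to 144 CPM with vehicle and 45.2 to 76.8 at the high dose, with Ly6g, a defining marker, at 0 counts in 5 of the 32 libraries. Hepatocyte markers (2 of 12 higher, 1490 to 8340 against 3760 to 99900 CPM) and T cell markers (3 of 6 higher, 7.19 to 15.5 against 17.5 to 42.7 CPM) went the other way. Endothelial markers (2 of 6 lower, median log2 change -0.87) and erythrocyte markers (1 of 4 lower, median -2.08) also had members that fell. Kupffer cell markers overlapped, with a mean log2 CPM of 0.5 to 2.88 with vehicle and -1.09 to 3.85 at the high dose. The part of these cells in the fall of Il1b and Nlrp3 was not tested.

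Relative to the macrophage markers, the high dose libraries stood apart from vehicle for Il1b and overlapped it for Nlrp3, with no test run. Il1b log2 CPM minus the mean of the 9 markers was -2.34 to -0.5 with vehicle, -2.17 to -1.42 at the low dose and -3.41 to -2.8 at the high dose. For Nlrp3 the same difference was -3.9 to -2.82 with vehicle, -3.46 to -3.23 at the low dose and -4.28 to -3.33 at the high dose. At the low dose both genes lay inside the vehicle range, and the macrophage markers had a median log2 change of 0.73 against vehicle, with 6 of 9 above every vehicle library and 0 past the threshold in edgeR.

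**Figure D4:**
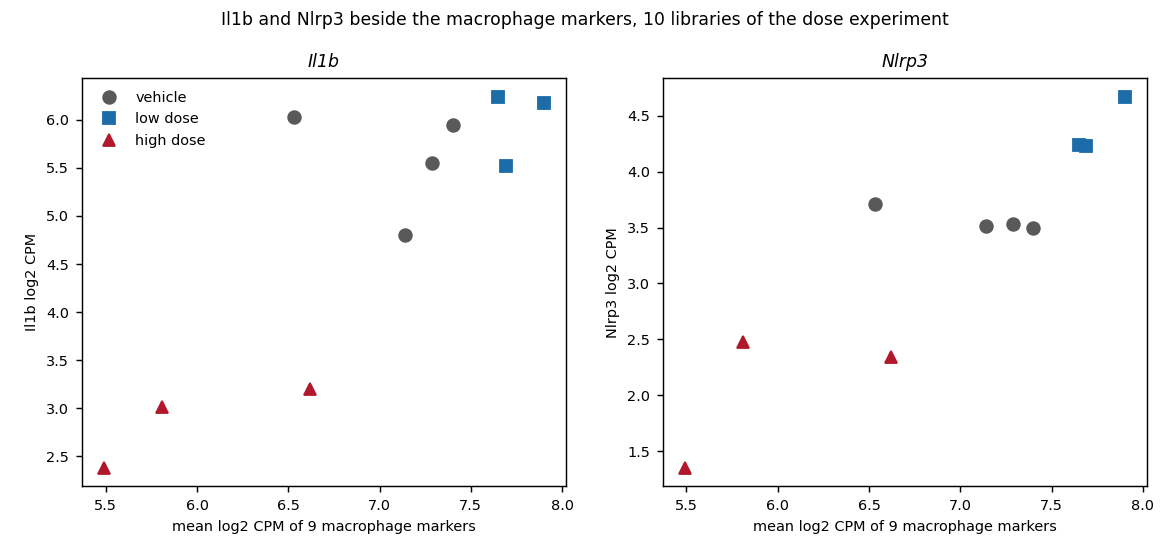
Log2 CPM of Il1b and of Nlrp3 (y axes) against the mean log2 CPM of 9 macrophage markers (x axis) in the 10 libraries of the dose experiment, each point a library. The high dose libraries have marker means of 5.49 to 6.62 and the vehicle libraries 6.53 to 7.4.

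Other genes of the pathway at the high dose were read from a list of 60, of which 51 were tested. In all, 3 rose and 5 fell, with a median log2 change of 0.00, where 15.6% of all genes passed (8.8% higher, 6.82% lower), so the share of the list was near that of all genes. Il18bp, which encodes a soluble trap for IL-18, rose from a mean of 2.59 to 4.3 log2 CPM (log2 change 1.78, SE 0.35, adjusted p = 0.0308). Il18r1, a subunit of the IL-18 receptor, rose from 1.42 to 2.72 (1.48, SE 0.37, adjusted p = 0.0407). Both groups were free of overlap for these genes, which act on the ligand that itself did not pass.

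Among the inflammasome genes 1 of 16 rose and 3 fell. Pycard, the adaptor that links sensor to caspase-1, fell from 3.22 to 1.72 log2 CPM (log2 change -1.46, SE 0.27, adjusted p = 0.0264). Naip2, a sensor of bacterial proteins, fell from 5.44 to 4.21 (-1.16, SE 0.2, adjusted p = 0.0229) and the sensor gene Nlrp1b changed by -1.21 (SE 0.28, adjusted p = 0.0361). Naip2 and Nlrp1b have near-identical paralogs, so their counts are uncertain. Nlrp6, a sensor best known from epithelium, had a mean of 0.77 ± 1.46 with vehicle and 5.32 ± 2.88 at the high dose (SD, log2 change 5.51, SE 1.51, adjusted p = 0.0458), with overlapping libraries. Gsdmd, which forms the membrane pore, was at 0.06 (adjusted p = 0.674) and Casp4 at 0.05 (adjusted p = 0.905).

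Of receptors and signaling genes, Il1rl1, which encodes the IL-33 receptor ST2, fell from 10.57 ± 0.26 to 8.65 ± 1.21 log2 CPM (SD, log2 change -1.64, SE 0.45, adjusted p = 0.045). Nfkb1, an NF-kB subunit, fell by 0.47 on the log2 scale (SE 0.13, adjusted p = 0.0467). Of 11 target genes tested, 0 passed in edgeR. The 8 calls lay at adjusted p = 0.0229 to 0.0467, and leaving out 1 library moved the number of all genes past the threshold from 2582 to between 15 and 7030. Between the doses 3 of 51 genes passed, near the 4.22% of all genes, and were all lower at the high dose, Pycard (-1.83, adjusted p = 0.0148), Nlrp1b (-1.59, adjusted p = 0.0256) and Naip2 (-1.27, adjusted p = 0.0184). At the low dose against vehicle none passed, and the smallest p-values belonged to Ptgs2, an IL-1 target (-1.63, adjusted p = 0.525), and the chemokine gene Cxcl3 (-4.95, adjusted p = 0.965).

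In the DC-101 experiment, which set the low dose beside blockade of VEGFR2 alone, the low dose gave log2 changes above 0 for all 9 genes, with none past the threshold in edgeR. The median log2 change was 1.3, against 0.01 over all 16138 genes tested. By edgeR and limma 0 of 9 passed and by DESeq2 1, Nlrp3, and 3 had an unadjusted p under 0.05 in edgeR, where 0.0248% of all genes passed and 17.1% had such a p in edgeR. DESeq2, which called Nlrp3, called 1097 of all genes, and limma called 4. Non-overlapping genes were 3 of 9 higher and 0 lower, where 6.98% and 9.42% of all genes were.

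Nlrp3 was at 3.95, 3.78, 4.02 and 3.38 log2 CPM with vehicle, 4.93, 5.96 and 5.02 at the low dose, and 4.34, 3.54 and 4.64 with DC-101. All low dose libraries were above both other groups. The log2 change against vehicle was 1.59 (SE 0.33, adjusted p = 0.0989), and against DC-101 it was 1.18 (SE 0.35, adjusted p = 0.481). Without low dose replicate 2 the change was 1.18 against vehicle and 0.74 against DC-101. Il1a was at 0.24, -0.67, -0.21 and -1.3 with vehicle, 0.35, 1.18 and 1.93 at the low dose, and 0.01, -0.24 and 1.17 with DC-101. The low dose was above vehicle in every library, with a log2 change of 1.77 (SE 0.54, adjusted p = 0.17).

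Il1b was at 5.52, 4.92, 4.64 and 1.86 log2 CPM with vehicle, 4.36, 7.41 and 6.3 at the low dose, and 4.45, 2.8 and 7.08 with DC-101. Each group spanned more than 3 on this scale and all overlapped, so the log2 change of 1.8 had an SE of 1.12 (adjusted p = 0.417) and was 0.93 without low dose replicate 2. Il1rn was at 4.97, 4.02, 4.02 and 2.92 with vehicle, 4.79, 6.39 and 5.53 at the low dose, and 4.16, 2.77 and 4.92 with DC-101. The log2 change at the low dose was 1.58 against vehicle (SE 0.6, adjusted p = 0.242) and 1.57 against DC-101 (SE 0.66, adjusted p = 0.572). Without low dose replicate 2 these changes were 1.06 and 1.02. Il18 was at 2.04, 1.86, 2.23 and 2.03 with vehicle, 2.32, 2.52 and 2.46 at the low dose, and 2.9, 2.22 and 2.61 with DC-101. Its low dose libraries were all above vehicle, with a log2 change of 0.4 (adjusted p = 0.339), and DC-101 overlapped vehicle by 0.01 with a change of 0.54 (SE 0.2, adjusted p = 0.342).

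Il33 was at 4.88, 4.74, 3.44 and 0.77 log2 CPM with vehicle, 3.81, 6.25 and 4.62 at the low dose, and -2.17, 1.88 and 5.49 with DC-101. The DC-101 libraries ran from the lowest value of any library, 3 counts, to above every vehicle library. Il1r1 was at 6.34, 6.65, 6.44 and 6.09 with vehicle, 6.3, 7.04 and 7.74 at the low dose, and 6.2, 6.56 and 7.59 with DC-101. Il1r2 was at 2.95, 0.6, 1.21 and 1.19 with vehicle, 1.16, 3.71 and 3.28 at the low dose, and 0.65, 1.06 and 3.3 with DC-101. Both receptors overlapped across the 3 groups. Casp1 was at 4.12, 4.54, 4.68 and 4.63 with vehicle, 4.19, 4.97 and 4.66 at the low dose, and 5, 4.34 and 4.22 with DC-101, and its log2 changes were 0.13 and 0.03.

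DC-101 moved none of the 9 genes past the threshold by edgeR, limma or DESeq2, and 1 had an unadjusted p under 0.05 in edgeR, where 0% and 13.2% of all genes did. Of all genes DESeq2 called 372 and limma 0. No gene was free of overlap with vehicle, where 6.44% of all genes were higher and 6.95% lower. Low dose against DC-101 also gave 0 of 9 by each tool and 2 unadjusted in edgeR, where 0% and 8.45% of all genes passed in edgeR and limma called 0 and DESeq2 187 of all genes. Nlrp3 was the 1 gene free of overlap, higher, where 4.96% were higher and 7.39% lower. The interval behind these comparisons is wide, as the SE of the Il1b change against DC-101 was 1.2 on the log2 scale.

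No cell marker passed in this experiment. At the low dose neutrophil markers had a median log2 change of 1.53 (36.5 to 196 against 56.2 to 372 CPM summed), Kupffer cell markers of 3.15 and hepatocyte markers of 3.10, while macrophage markers had -0.18. Endothelial markers had -1.59 at the low dose and -1.43 with DC-101, in both with 4 of 6 below every vehicle library. Kupffer cell markers had a mean log2 CPM of -0.52 with vehicle, 2.94 at the low dose and 2.22 with DC-101. For hepatocyte markers it was 2.68, 7.95 and 7.08 in that order. The part of these cells in the changes of the 9 genes was not tested. Of the other pathway genes none passed. The smallest p-values were those of Nfkbia, which encodes an NF-kB inhibitor (0.86, adjusted p = 0.0753), and Il1rl2, the IL-36 receptor gene (-0.93, adjusted p = 0.118), at the low dose. With DC-101 they were those of Nfkbia (0.69, adjusted p = 0.309) and Traf6, a signaling adaptor gene (-0.31, adjusted p = 0.356). Between the treatments they were those of Mefv, the pyrin gene (2.1, adjusted p = 0.473), and Tab1 (-0.42, adjusted p = 0.505).

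In the anti-PD1 experiment, which asked what the low dose adds to checkpoint blockade, Il1r2 libraries lay below vehicle under every treatment and Il1b libraries of the combination lay above those of vehicle. By edgeR none of the 9 genes passed in any comparison. The low dose gave 0 of 9 by edgeR and limma and 2 by DESeq2, Il1a and Il1r2, with 3 unadjusted, where 0% and 11.8% of all 16615 genes did in edgeR and DESeq2 called 435. Anti-PD1 gave 0 of 9 by the 3 tools and 3 unadjusted in edgeR, where 0% and 13.7% of all genes did in edgeR and DESeq2 called 614. The combination gave 0 of 9 by the 3 tools and 2 unadjusted in edgeR, where 0% and 8.2% of all genes did in edgeR and DESeq2 called 150. Against anti-PD1 alone it gave 0 of 9 by the 3 tools and 0 unadjusted in edgeR, where 0% and 8.68% of all genes did in edgeR and DESeq2 called 192. In these 4 comparisons limma called 0 of all genes.

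Il1r2 was at 2.62, 2.65 and 3.87 log2 CPM with vehicle, 1.98, 0.95 and 0.71 at the low dose, 2.21, 1.23 and 2.49 with anti-PD1, and 2.15, 1.3 and 1.62 with the combination. Every treated library was below every vehicle library. The log2 changes were -1.9 (SE 0.52, adjusted p = 0.248), -1.18 (SE 0.51, adjusted p = 0.344) and -1.52 (SE 0.52, adjusted p = 0.494) in that order. These comparisons share the 3 vehicle libraries, and without vehicle replicate 3 the change was -0.6 with anti-PD1 and -0.94 with the combination. Il1a was at 1.75, 0.57 and 2.18 with vehicle, 0.1, -0.86 and -1.66 at the low dose, 0.47, 1.46 and 0.71 with anti-PD1, and 0.86, 0.46 and 0.56 with the combination. Only the low dose was free of overlap with vehicle, with a log2 change of -2.43 (SE 0.59, adjusted p = 0.246).

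Il1b was at 4.74, 2.37 and 5.5 log2 CPM with vehicle, 5.74, 3.9 and 5.19 at the low dose, 4.87, 5.34 and 5.23 with anti-PD1, and 5.68, 6.37 and 6.56 with the combination. The combination libraries were above those of vehicle and of anti-PD1 and overlapped those of the low dose. The log2 change was 1.52 against vehicle (SE 0.64, adjusted p = 0.572) and 1.1 against anti-PD1 (SE 0.63, adjusted p = 0.676). Against vehicle it was 1.04 without vehicle replicate 2 and 2.24 without vehicle replicate 3. Nlrp3 was at 3.27, 1.78 and 4.63 with vehicle, 4.64, 2.32 and 4.61 at the low dose, 3.65, 3.87 and 3.01 with anti-PD1, and 4.52, 4.67 and 5.09 with the combination. Its combination libraries were above those of anti-PD1, with a log2 change of 1.24 (SE 0.68, adjusted p = 0.656), and overlapped vehicle.

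Il1rn was at 3.81, 1.16 and 5.1 log2 CPM with vehicle, 4.61, 3.03 and 4.44 at the low dose, 4.14, 3.77 and 4.24 with anti-PD1, and 4.65, 4.76 and 4.69 with the combination. The combination was above anti-PD1 in every library (log2 change 0.64, SE 0.69, adjusted p = 0.82). For Il1b, Il1rn and Nlrp3, vehicle replicate 2 was the lowest library of the experiment. Non-overlapping genes of the combination against anti-PD1 were thus 3 of 9 higher and 0 lower, where 16.2% and 13.8% of all genes were. Against vehicle they were 0 higher and 2 lower at the low dose (6.81% and 7.35% of all genes), 0 and 1 with anti-PD1 (8.68% and 8.39%) and 1 and 1 with the combination (11.2% and 6.7%).

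Il33 was at 4.05, 1.92 and 7.22 log2 CPM with vehicle, 4.52, 2.05 and 4.28 at the low dose, 1.25, 2.77 and 3.72 with anti-PD1, and 2.84, 4.27 and 4.5 with the combination. Vehicle replicate 3, with 3499 counts, stood far above the rest, and the anti-PD1 log2 change of -3.01 (SE 1.17, adjusted p = 0.302) had overlapping groups and was -0.47 without that library. Il1r1 was at 6.61, 6.12 and 7.36 with vehicle, 6.32, 5.14 and 6.18 at the low dose, 5.72, 5.86 and 6.25 with anti-PD1, and 5.97, 6.47 and 6.15 with the combination. Its log2 change was -0.85 at the low dose (SE 0.36, adjusted p = 0.389) and -0.88 with anti-PD1 (SE 0.36, adjusted p = 0.318), with overlap in both. Without vehicle replicate 3 these changes were -0.42 and -0.45. The difference of Il1r1 and Il1r2 was 3.48 to 4 with vehicle, 4.19 to 5.47 at the low dose, 3.51 to 4.63 with anti-PD1 and 3.82 to 5.17 with the combination, and only the low dose was free of overlap with vehicle. In the DC-101 experiment it was 3.39 to 6.05 with vehicle, 3.33 to 5.14 at the low dose and 4.29 to 5.54 with DC-101, all overlapping.

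Il18 was at 3.25, 3.25 and 2.68 log2 CPM with vehicle, 2.73, 3.7 and 2.9 at the low dose, 3.28, 2.67 and 2.69 with anti-PD1, and 3.23, 3.06 and 2.99 with the combination. Casp1 was at 5.64, 5.27 and 4.81 with vehicle, 5.23, 5.83 and 5.12 at the low dose, 5.1, 5.18 and 4.85 with anti-PD1, and 4.98, 5.31 and 5.76 with the combination. Both genes overlapped across all groups, and their log2 changes against vehicle lay between -0.27 and 0.16.

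Neutrophil markers, with none past the threshold, had a median log2 change against vehicle of -2.64 at the low dose (60 to 277 against 44.2 to 118 CPM summed), -1.80 with anti-PD1 and -0.78 with the combination. Kupffer cell markers had -3.65, -3.82 and -2.50, and hepatocyte markers -1.89, -2.66 and -0.02. In the combination against anti-PD1 the median was 2.93 for hepatocyte, 1.87 for T cell and -0.07 for macrophage markers, again with none past the threshold. The part of these cells in the levels of the 9 genes was not tested. Of the other pathway genes none passed. Saa3, an acute phase gene and IL-1 target, had one of the smallest p-values in each comparison with vehicle, at -3.38 (adjusted p = 0.265) for the low dose, -5.04 (adjusted p = 0.249) for anti-PD1 and -3.78 (adjusted p = 0.475) for the combination. Beside it stood Il1rl2 for the low dose (-1.06, adjusted p = 0.264) and the combination (-0.9, adjusted p = 0.497), and the sensor gene Nlrp12 for anti-PD1 (-2.98, adjusted p = 0.249). Against anti-PD1 alone the combination had Mefv (2.02, adjusted p = 0.472) and Nlrp6 (3.69, adjusted p = 0.472).

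The low dose was the treatment measured in every experiment, with 11 vehicle and 9 low dose libraries. With the experiment as a term, Nlrp3 had the smallest p of the 9 genes. Its mean was 3.55 ± 0.7 log2 CPM with vehicle and 4.51 ± 0.97 at the low dose (SD), and the log2 change of 0.99 did not pass (SE 0.31, adjusted p = 0.106). In the same fit 4 of 6 endothelial markers fell (median log2 change -1.21), where 1.77% of all genes passed. Of 9 macrophage markers 1 rose (median 0.14), as did 1 of 4 monocyte markers (median 0.44), and 0 of 7 neutrophil markers passed in edgeR. The part of these cells in the Nlrp3 change was not tested. Il18 followed with 0.37 (SE 0.15, adjusted p = 0.218), then Il1b with 0.87 (SE 0.46, adjusted p = 0.371). Within the experiments the Nlrp3 change was 0.8 (dose), 1.59 (DC-101) and 0.48 (anti-PD1), the last being 0.04 without vehicle replicate 2 and 1.48 without vehicle replicate 3, and a test of whether it differed between them gave adjusted p = 0.848.

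Over the 3 experiments 0 of 9 genes passed by edgeR and limma and 1, Nlrp3, by DESeq2, and 2 had an unadjusted p under 0.05, where 1.77% and 16% of all 15562 genes did in edgeR, DESeq2 called 892 and limma 304. None was free of overlap, where 0.0578% of genes were higher and 0.193% lower. The low dose change of Il1a was -0.15 (dose), 1.77 (DC-101) and -2.43 (anti-PD1), and that of Il1r2 was -1.34, 1.3 and -1.9. The test of a difference between experiments gave adjusted p = 0.392 for Il1a and 0.424 for Il1r2, with 0 of 9 genes past the threshold in edgeR, 3 unadjusted and 1 in DESeq2, Il1a, where 0% of all genes passed in edgeR 9.52% were past unadjusted and DESeq2 called 96. In the DC-101 and anti-PD1 experiments the median log2 changes of neutrophil (1.53 and -2.64), Kupffer cell (3.15 and -3.65) and hepatocyte markers (3.10 and -1.89) had the same signs as Il1a and Il1r2. In the dose experiment the medians were -0.71 for neutrophil, 0.48 for Kupffer cell and 1.78 for hepatocyte markers. Il1a (SE 0.66) and Il1r2 were below 0 there. Endothelial (-1.06), erythrocyte (-1.69) and fibroblast markers (-0.29) were below 0 as well. Macrophage (0.73), monocyte (0.37), T cell (0.82) and mast cell markers (0.53) were above 0. The part of these cells was not tested. Of the other pathway genes Sigirr, an inhibitory receptor of the family, rose (0.45, SE 0.1, adjusted p = 0.0314) and Chuk, an NF-kB kinase gene, fell by 0.49 (SE 0.12, adjusted p = 0.0382). The smallest p-values for a difference between experiments belonged to Nfkbia (adjusted p = 0.392) and the sensor gene Nlrc4 (adjusted p = 0.421).

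Across the 32 libraries, centered on the mean of their experiment, some of the 9 genes varied together. These correlations are descriptions, since the libraries share treatments and tissue makeup. Pearson's r was 0.84 for Il1b with Nlrp3 (Spearman's rho 0.82), 0.78 for Il1b with Il1rn (rho 0.72), 0.75 for Il1rn with Nlrp3 (rho 0.74) and 0.69 for Il1r1 with Il1r2 (rho 0.64). Il18 had r of -0.25 to 0.11 with the others.

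Among 13546 genes kept in every experiment, those most like each gene were named by Pearson's r over the same libraries. For Il1b they were Smox (0.88), Basp1 (0.86) and Slc15a3 (0.85), and for Il1rn they were Smox (0.9), Ccl3 (0.88) and Hcar2 (0.88). For Nlrp3 they were Itpripl2 (0.92), Slc15a3 (0.91) and Stk4 (0.91). Il1r2 was closest to the neutrophil gene S100a8 (0.88), Stfa2l1 (0.88) and Asprv1 (0.87), and Il1a to Nfe2 (0.76), the Kupffer cell gene Cd5l (0.72) and Adamdec1 (0.72). For Il33 they were Lgi2 (0.94), Gfpt2 (0.93) and Pdzrn3 (0.93), and for Il1r1 Serpina3i (0.87), Csrnp1 (0.82) and Frem1 (0.81). Casp1 was closest to the DNA sensor gene Aim2 (0.86), Eif4e3 (0.83) and Tnfaip8 (0.83), and Il18 to Idnk, C1galt1c1 and Saysd1 (0.86 each).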

How the data were processed

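RNA of BNL-MEA tumors was sequenced in 32 libraries with a stranded mRNA kit. Per the labels and the methods of the study, the authors trimmed reads with cutadapt 2.4, aligned them with STAR 2.7.2a to GRCm38 and deposited whole-number gene counts with no normalization, in 1 table per experiment. The 9 genes and all lists were chosen with earlier results of these data known. Of 54446 gene IDs, 54409 matched the annotation. Within each experiment, genes were kept by filterByExpr (count minimum 10, total 15), scaled by TMM and tested with edgeR 4.0.16 (R 4.3.3), with Benjamini-Hochberg adjustment over all genes kept and a threshold of 0.05. Log2 CPM used a prior count of 2. The low dose was also fitted over the 3 experiments with experiment as a term and as an interaction. limma 3.58.1 (voom), DESeq2 1.42.0, other scalings, no filter, a hepatocyte covariate, a replicate block and leaving out each library or experiment were alternatives. The scripts were tested on simulated data. Named were all 9 genes, pathway genes past the threshold (at most 5 rises and 5 falls per comparison, otherwise the 2 with the smallest p) and the 3 genes most like each. Of 36 pairs of libraries of the same group, none agreed within sampling noise. Libraries held 16.8 M to 27.7 M counts, and counting error is largest for Il1a, Il1r2 and the lowest Il33 values.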

Additional observations from a re-analysis of the deposited data

Results flagged for a closer look

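Nlrp3 was at 3.71 log2 CPM in vehicle replicate 2 of the dose experiment, where the other vehicle libraries lay at 3.5 to 3.53 (gap over range 0.863). It was the only outlying library among 18 groups of 4 tested, and chance gives about 1 in 20.

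Il1a had log2 changes of opposite sign at the low dose in the DC-101 experiment (log2 change 1.77) and the anti-PD1 experiment (-2.43), with every library of each group on its own side of vehicle. The difference between experiments had an unadjusted p = 0.000779 in edgeR's quasi-likelihood test and an adjusted p = 0.392.

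Nlrp3 had a log2 change against vehicle of 0.8 at the low dose and -1.43 at the high dose of the dose experiment, with no overlap of any groups. The difference between the doses was -2.24 (adjusted p = 0.00783, edgeR). Macrophage markers had a median log2 change of 0.73 at the low dose and -1.29 at the high dose, and their part was not tested.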

How the results depend on the processing

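Outside the fits that leave out a library, 750 values of single genes kept their direction and side of the threshold, 18 reversed, 9 newly passed and 6 no longer passed. The number of the 9 genes past the threshold, high dose against vehicle, was 2, and it was 1 with total count scaling, 1 with the hepatocyte covariate and 0 with the replicate block (Il1b -2.96, adjusted p = 0.188, Nlrp3 -1.47, adjusted p = 0.192). High dose against low dose it was 0 with the block (Il1b -3.11, adjusted p = 0.0833, Nlrp3 -2.28, adjusted p = 0.116). For the low dose over 3 experiments it was 1 with the block (Nlrp3 0.93, adjusted p = 0.0459), 1 with DESeq2 (Nlrp3, adjusted p = 0.0337) and 1 without the anti-PD1 experiment (Nlrp3 1.2, adjusted p = 0.00677). Deviations of same-numbered libraries correlated above 0.1 in 2 of 9 (dose), 4 of 9 (DC-101) and 6 of 18 (anti-PD1) pairs. Libraries with different numbers were not compared, so this check cannot tell whether replicate numbers pair the libraries. With DESeq2 the number of the 9 genes past the threshold was 1 for the low dose in the DC-101 experiment (Nlrp3, adjusted p = 0.000383), 2 in the anti-PD1 experiment (Il1a, adjusted p = 0.00483, Il1r2, adjusted p = 0.0191) and 1 for the difference between experiments. The cause was not tested.

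Some log2 changes reversed. With limma, Il1rn and Nlrp3 under anti-PD1 were 0.62 and 0.22, and with the block 0.31 and 0.25. The block also gave Il1a 0.08 at the low dose (dose experiment) and Il1r2 -0.20 under DC-101. Il18 in the combination against vehicle was 0.02 with total counts, 0.01 with no filter and 0.01 with the hepatocyte covariate. That covariate gave, high against low dose, Il1r2 -0.01 and Il18 -0.12, Il1r1 under DC-101 -0.02, Il1rn at the low dose (anti-PD1 experiment) -0.09 and Il1a under anti-PD1 0.20. Over the experiments left, Il1r1 was 0.01 without the dose experiment, and Il1a 0.81, Il1r1 0.27 and Il1r2 0.10 without the anti-PD1 experiment.

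Leaving out 1 library at a time, the number of genes past the threshold was 0 to 3 for high dose against vehicle, 1 to 2 for high against low dose and 0 to 1 for the low dose over 3 experiments, where Nlrp3 passed without anti-PD1 vehicle replicate 3 (1.27, adjusted p = 0.0141) or low dose replicate 2 (1.12, adjusted p = 0.0321). The third gene at the high dose was Il18, without high dose replicate 3 (1.11, adjusted p = 0.0145). A sign changed within these ranges of log2 change. In the dose experiment they were Il1a -0.42 to 0.20, Il1rn -0.10 to 0.45 and Casp1 -0.07 to 0.12 at the low dose, Il1rn -0.47 to 0.10, Il1r1 -0.07 to 0.12 and Il33 -0.04 to 1.3 at the high dose, and Il1r2 -0.01 to 0.71 and Il18 -0.13 to 0.53 between doses. In the DC-101 experiment they were Casp1 -0.06 to 0.32 at the low dose, Il1b -0.88 to 1.59, Il1rn -0.55 to 0.43, Il1r1 -0.02 to 0.77, Il1r2 -0.97 to 1.13, Il33 -3.22 to 0.50 and Casp1 -0.23 to 0.19 under DC-101, and Il1b -0.14 to 2.67, Il1r1 -0.14 to 0.77, Il18 -0.33 to 0.01 and Casp1 -0.11 to 0.37 between treatments. In the anti-PD1 experiment they were Il1b -0.07 to 1.13, Il1rn -0.45 to 1.17, Il18 -0.30 to 0.30, Il33 -2.48 to 0.61 and Casp1 -0.13 to 0.34 at the low dose, Il1b -0.06 to 1.15, Il1rn -0.59 to 1.03 and Nlrp3 -0.61 to 0.83 under anti-PD1, Il18 -0.18 to 0.06, Il33 -2.41 to 0.67 and Casp1 -0.17 to 0.25 in the combination, and Il1a -0.52 to 0.04 in the combination against anti-PD1. Over 3 experiments they were Il1a -0.34 to 0.19, Il1r1 -0.25 to 0.08 and Il33 -1.12 to 0.12.

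Over all genes, 2582 passed for high dose against vehicle, and 5275 did with DESeq2, 1332 with limma, 416 with no filter, 282 with total counts (which moved the median change of all genes from 0.02 to -0.13), 121 with the hepatocyte covariate, 1 with the block and 15 to 7030 when 1 library was left out. High against low dose 697 passed, and 3059 did with DESeq2, 309 with no filter, 198 with total counts, 1 with the block and 62 to 4488 when 1 library was left out. For the low dose over 3 experiments 276 passed, and 892 did with DESeq2, 153 with no filter, 178 with the block, 158 to 313 when 1 library was left out and 17 to 407 when 1 experiment was.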
